A study of Mus musculus with 6 samples.

Results

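The circular RNAs (circRNAs) described here are those whose name on the array gives a genomic span of more than 30000 bases. They were taken from the probe names alone, as the end position minus the start position, and no measured value entered the choice. There were 8238 of them, 21.8% of the 37852 circRNA probes and part of 150305 probes in all, each with 1 probe of 60 bases. The tissue was prefrontal cortex from male mice of the outbred ICR stock, 3 to 4 months old. The wild type samples (3) carry no stated alteration and the Nrf2 knockout samples (3) are labelled as knockouts of Nrf2, the antioxidant transcription factor encoded by Nfe2l2; the labels name no treatment and no other allele. Which part of the gene was deleted, and whether every sample is a separate animal, is not stated in the sources used here. The p-values therefore reflect only how far these samples vary, and that variation may be technical. Each sample was labelled with the dye Cy3 and hybridised to 1 single-colour Agilent array.

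A circRNA is a closed loop made by back-splicing, in which the 5′ splice site at the end of an exon (the donor) is joined to the 3′ splice site at the start of the same or an earlier exon (the acceptor). The span is the distance between those sites in the genome. It counts introns that are usually spliced out, so a long span does not mean a long RNA. Neurons are rich in circRNAs, many of them from long genes for synaptic, adhesion and cytoskeletal proteins, and back-splicing is favoured by paired repeats in the flanking introns and by RNA-binding proteins such as quaking and muscleblind.

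Spans ran from 30002 to 486424 bases, with a median of 53610 and quartiles of 38813 and 84974. The shortest member, from Ipo11 (a nuclear import receptor gene), spanned 30002 bases and had log2 signals of −0.19, −0.22 and −0.09 in wild type against −0.12, −0.30 and −0.26 in the knockout. The longest circRNA left out, from Osbpl1a (an oxysterol-binding protein gene), spanned 30000 bases and was at −0.86, −0.55 and −0.63 against −0.74, −0.70 and −0.47. A level here is the log2 processed signal with the array's own 75th percentile subtracted, so a value of 0 is a probe at that percentile. In both, the arrays of the 2 genotypes interleaved.

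Of the members, 7897 (95.9%) lay inside at least 1 coding gene of assembly GRCm38, against 22.4% after the positions were shifted by 1 Mb, and their positions were therefore read as GRCm38. Exactly 1 coding gene held 7893 of them, called the host, and there were 1807 hosts. A member covered a median of 24.2% of its host's length. Where the host's strand was listed (6126 members), 99.8% lay on it. Many hosts were shared: 679 had 1 member and 201 had 10 or more. Lrrc7, a postsynaptic density scaffold gene, had 43, Adgrb3, an adhesion receptor of synapses, had 42, Ptk2, the gene of focal adhesion kinase, had 41, and Anks1b, another postsynaptic protein gene, had 38. Splice sites were shared too, since 4604 members had their acceptor in common with another member, 4202 their donor, and 6307 at least 1 of the 2. Members of 1 host are therefore not independent measurements.

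The probe sequences show what each signal can tell. The junction could be placed to within 3 bases in 4181 members, by aligning probes that share a donor or an acceptor. In 2056 of these (49.2%) the probe held only 9 or 10 bases of the donor exon before the junction and about 50 bases of the acceptor exon after it; the share was 47.7% in circRNAs of 1 to 30 kb. Only 1016 (24.3%) had more than 20 bases on both sides. A probe of the first kind is mostly a probe for the acceptor exon. The clearest case was Dpyd, which encodes dihydropyrimidine dehydrogenase, the enzyme that starts the breakdown of uracil and thymine. In 5 of its 23 members, from 1 acceptor at chr3:118915205 to 5 donors, the probes share the same acceptor bases and differ only in 9 donor bases. They are printed because their signals moved together (below), with the donor side in capitals and the acceptor side in lower case, 5′ to 3′:
Dpyd chr3:118915205-118999385: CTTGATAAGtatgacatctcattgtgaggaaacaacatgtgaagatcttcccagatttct
Dpyd chr3:118915205-119065043: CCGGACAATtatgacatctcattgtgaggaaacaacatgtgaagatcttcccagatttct
Dpyd chr3:118915205-119141985: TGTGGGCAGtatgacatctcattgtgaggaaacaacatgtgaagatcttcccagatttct
Dpyd chr3:118915205-119195188: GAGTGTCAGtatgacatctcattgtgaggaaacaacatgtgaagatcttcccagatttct
Dpyd chr3:118915205-119266097: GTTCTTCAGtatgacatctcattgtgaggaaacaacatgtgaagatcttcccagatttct

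Other Dpyd members reach the same donors from other acceptors, and these are printed to show a different arrangement at the same donor site, with the same use of capitals. The first shares its donor with the circRNA ending at 118999385 above, the next with the one ending at 119065043:
Dpyd chr3:118797348-118999385: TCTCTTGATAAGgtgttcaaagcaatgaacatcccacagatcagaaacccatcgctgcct
Dpyd chr3:118897094-119065043: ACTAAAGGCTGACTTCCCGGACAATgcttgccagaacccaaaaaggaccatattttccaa

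A further set has the junction near the middle of the probe. These 4 are shown because they were among the members with the lowest fold changes, and they were picked after their values were seen. Dst encodes dystonin, a cytoskeletal linker, and Ubr3 and Uhrf2 encode ubiquitin ligases:
Dst chr1:34086242-34117524: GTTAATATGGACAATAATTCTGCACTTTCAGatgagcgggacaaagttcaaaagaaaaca
Dst chr1:34086242-34135256: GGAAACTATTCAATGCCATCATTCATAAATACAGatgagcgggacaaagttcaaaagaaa
Ubr3 chr2:69914414-69959663: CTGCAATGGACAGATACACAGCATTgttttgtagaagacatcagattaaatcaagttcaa
Uhrf2 chr19:30039064-30079943: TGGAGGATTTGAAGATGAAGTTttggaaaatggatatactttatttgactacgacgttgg

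Across the series, the arrays were alike in depth of signal but did not separate by genotype alone. The 75th percentile of the processed signal lay between 245 and 280.3 units, and no probe was saturated on any array. By the scanner headers, slide 1 carried knockout 1 together with all wild type arrays, and slide 2 carried knockouts 2 and 3. On the first principal component (52.2% of the variance) knockouts 2 and 3 lay at 100.7 and 99.5 and the 4 arrays of slide 1 between −70.7 and −25.8, and wild type 1 stood apart on the second, at 93.6. Nfe2l2 itself was at 0.49, 0.39 and 0.35 in wild type against −3.74, −3.79 and −3.46 in the knockout (log2 fold change −4.08, limma adjusted p = 6.14e-04), although the labels do not say whether its probe lies in the deleted part. Markers of cortical neurons and glia were well above background on all 6 arrays, as were those of striatum, red cells and meningeal fibroblasts. The summed level of the 5 meningeal fibroblast markers was 4.76 to 5.38 in wild type and 4.48 to 4.77 in the knockout. That of the 5 red cell markers was higher on every knockout array (9.29 to 9.66 against 9.71 to 9.95), and that of the 5 astrocyte markers lower (8.07 to 8.14 against 7.97 to 8.06). The part of these in the results below was not tested. In bulk tissue, fewer cells of a type and less RNA per cell cannot be told apart.

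Most members gave a signal. On the wild type arrays 90.1, 90.9 and 91.2% of them were called well above background by the scanner software, and on the knockout arrays 91.9, 90.1 and 89.8%. The ranges of the genotypes overlap, with the highest share on knockout 1. Circles of 1 to 30 kb had 91.5 to 92.5% in wild type, those under 1 kb had 92.8 to 93.7%, and coding transcripts had 83.5 to 84.3%. All 6 arrays detected 7134 members (86.6%), while 477 (5.8%) were detected on none. The median level was −1.54, −1.50 and −1.56 in wild type against −1.48, −1.49 and −1.49 in the knockout. Span made little difference, with 86.1% of members of 30 to 40 kb and 86.5% of those over 200 kb detected on every array. The share differed more with probe composition, from 63.5% of the 447 members with at most 35% G and C to 94.9% of the 1287 with more than 55%. Whether composition itself accounts for this was not tested.

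**Figure D1:**
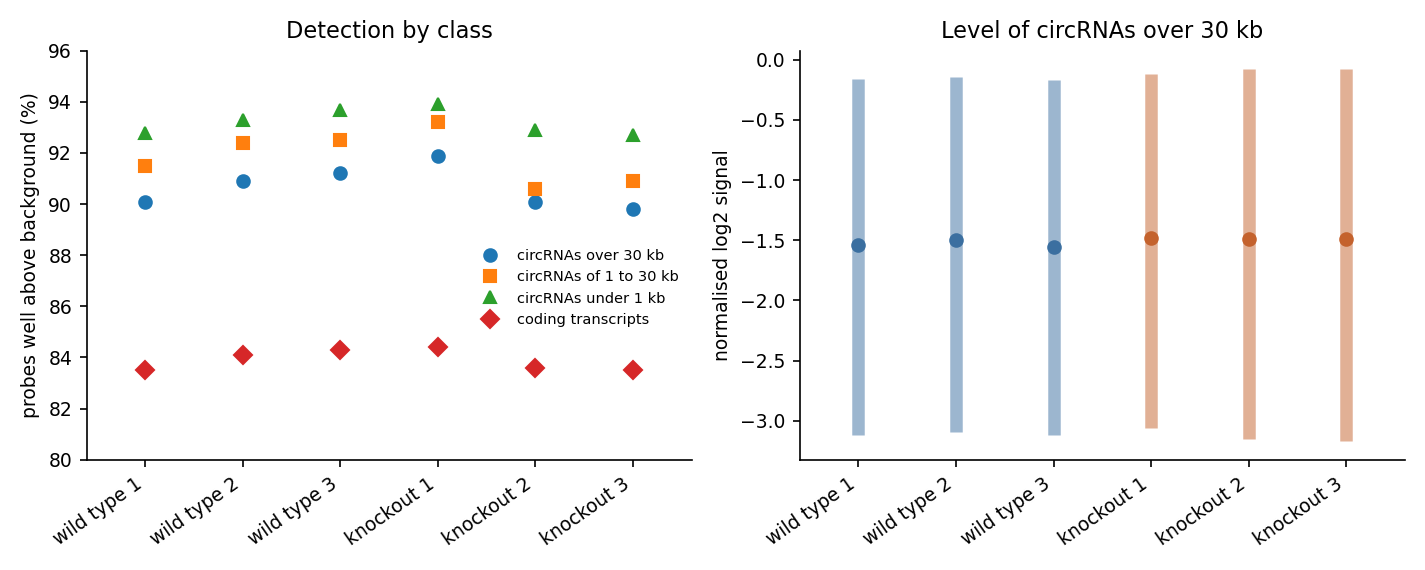
Left, percent of probes well above background on each of the 6 arrays (axis from 80 to 96%) for circRNAs over 30 kb, of 1 to 30 kb and under 1 kb and for coding transcripts. Right, median (point) and quartiles (bar) of the normalised log2 signal of the 8238 circRNAs over 30 kb, which lie within 0.08 of each other at the median.

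The 6 members with the highest signal came from Cdon and Dab1 (2 each), Prkce and Nfix. Signals of different probes depend on the probe as well as the RNA, so this order is not an order of abundance. The Cdon and Prkce probes hold 9 donor and 51 acceptor bases, so each is mostly a probe for the acceptor exon. That of the 226 kb Dab1 circle holds 21 and 39, and that of Nfix 34 and 26. Cdon, a co-receptor for hedgehog signals, gave a circle of 39.9 kb at 7.99, 8.0 and 7.99 in wild type against 7.86, 7.75 and 7.75 in the knockout. Dab1, which relays reelin signals to migrating neurons, gave a circle of 226 kb at 7.26, 7.33 and 7.23 against 7.05, 6.76 and 6.62. Prkce, the gene of protein kinase C epsilon, gave a circle of 69.3 kb at 6.98, 7.03 and 6.96 against 6.83, 6.44 and 6.37. In each of these the 3 knockout arrays lay below the 3 wild type arrays, but none passed the test. The log2 fold changes were −0.21 (SE 0.08, limma adjusted p = 0.325), −0.46 (SE 0.13, adjusted p = 0.307) and −0.44 (SE 0.14, adjusted p = 0.307). With slide as a block they were −0.14, −0.22 and −0.16. Nfix, a transcription factor gene of neural differentiation, gave a circle of 58.5 kb at 6.47, 6.26 and 6.49 against 6.3, 6.51 and 6.42, with the genotypes interleaved.

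The longest members with probes well above background on all 6 arrays spanned 451 to 480 kb. The Lpp, Ctnnd2 and Nkain2 probes hold 9 donor and 51 acceptor bases, so each is mostly a probe for the acceptor exon. The Celf2 probe holds 21 and 39. The 480 kb circle of Lpp, an adhesion-site protein gene, was at −3.92, −3.81 and −3.96 in wild type against −3.78, −3.63 and −3.37 in the knockout, and the knockout arrays were all higher (log2 fold change 0.30, SE 0.13, limma adjusted p = 0.332). The 475 kb circle of Ctnnd2, which encodes the dendritic protein delta-catenin, was at 0.89, 0.90 and 0.85 against 0.84, 0.98 and 0.89. Its groups overlapped, at a log2 fold change of 0.02 (SE 0.08). The 464 kb circle of Celf2, a splicing regulator gene, was at 1.43, 1.49 and 1.41 against 1.38, 1.24 and 1.19, so each knockout array was lower (log2 fold change −0.17, SE 0.09, adjusted p = 0.381). The 451 kb circle of Nkain2, a gene for a sodium pump partner, was at −1.69, −1.44 and −1.49 against −1.21, −1.39 and −1.33, and was higher on every knockout array (log2 fold change 0.23, SE 0.11, adjusted p = 0.351).

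No circRNA over 30 kb passed the test for a difference between genotypes. Of 8238 members, 7425 were tested, being well above background on all 3 arrays of at least 1 genotype, and 813 were not. At a Benjamini-Hochberg adjusted p of 0.05, limma called 0 of the 7425, against 10 of 105930 tested probes (0.00944%), and the smallest adjusted p of a member was 0.174. An unadjusted p under 0.05 was reached by 1097 members (14.8%), against 15.1% of all tested probes, which is near the background. By direction, 690 were higher in the knockout (9.29%, background 6.11%) and 407 lower (5.48%, background 8.94%). Among the other tested circRNAs 8.53% were higher and 6.34% lower. Leaving out 1 array moved the 14.8% to 37.4 without knockout 1, 5.62 without knockout 2, 5.43 without knockout 3, 10.2 without wild type 1, 8.59 without wild type 2 and 7.08 without wild type 3. The adjusted test then called 1011 members without knockout 1, when slide and genotype cannot be told apart, 1 without wild type 1 and 0 in the other cases.

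The genotypes did not overlap in 1736 tested members (23.4%, background 21.6%). In 1299 of these every knockout array was above every wild type array (17.5%, background 11.1%), and in 437 every one was below (5.89%, background 10.4%). Other circRNAs gave 16.2 and 7.08%. The median log2 fold change was 0.089 over the tested members, 0.080 over other circRNAs and 0.028 over all tested probes, and 65.6% of the tested members lay above 0. With slide as a block the median was 0.050. Then 262 members (3.53%, background 5.69%) had an unadjusted p under 0.05, and 1, from Bmpr1b, passed the adjusted threshold (0.00661% of all tested probes did).

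**Figure D2:**
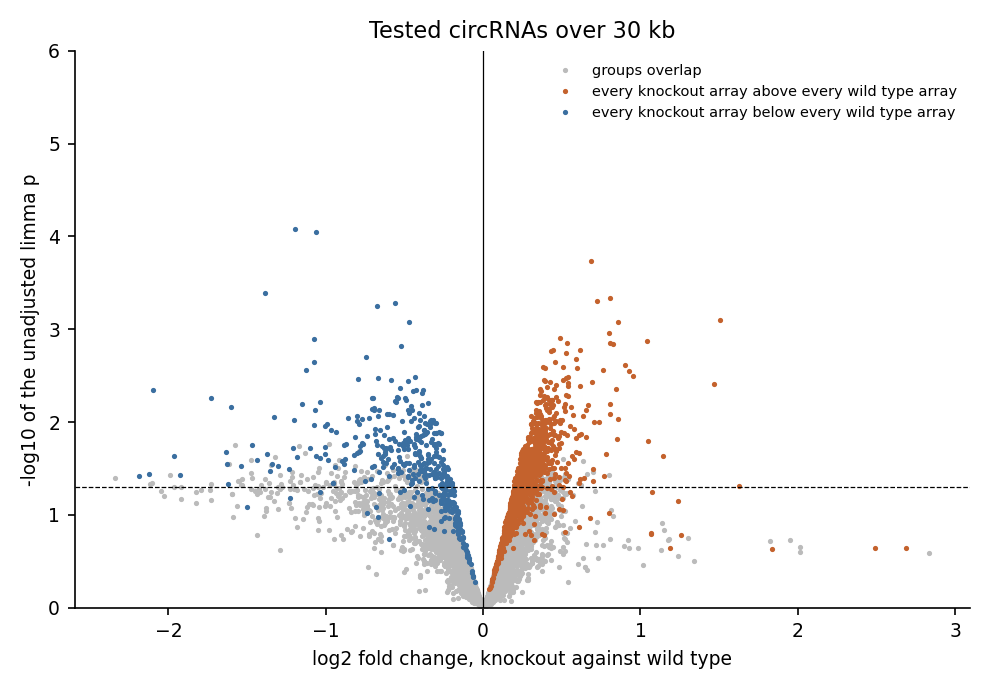
Each point is 1 of the 7425 tested circRNAs over 30 kb. The horizontal axis is the log2 fold change of knockout against wild type, the vertical axis −log10 of the unadjusted limma p, the dashed line marks a p of 0.05, and colours mark the 1299 members whose knockout arrays were all higher and the 437 whose knockout arrays were all lower. None passed the adjusted threshold, and the points high on the left are Dpyd circles.

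The smallest p-values belonged to Dpyd. The circle ending at 119141985 was at −1.53, −1.19 and −1.56 in wild type against −2.46, −2.71 and −2.71 in the knockout. That is −1.43 ± 0.21 (SD, n = 3) against −2.62 ± 0.14 (n = 3), so the log2 fold change was −1.20 (SE 0.14, limma adjusted p = 0.174). The other 4 with its acceptor had log2 fold changes of −1.06, −1.08, −1.13 and −1.39 (adjusted p = 0.182 to 0.307). In all 5 every knockout array was below every wild type array, with knockout 1 the least low. The one ending at 119195188, for example, was at −1.41, −1.09 and −1.38 against −1.89, −2.60 and −2.63.

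With slide as a block, an estimate that rests on knockout 1, the 5 stayed negative, at −0.59 to −1.03. Without knockout 1, where slide and genotype cannot be told apart, each of them passed the adjusted threshold (limma adjusted p = 0.00205 to 0.00617); over all alternatives their adjusted p reached 0.687 to 0.898 and their log2 fold changes kept their sign. Because the 5 probes differ in only 9 bases, they do not count as 5 separate findings. Over all members, pairs that share an acceptor and at least 45 probe bases had log2 fold changes a median of 0.071 apart (2391 pairs), against 0.164 for pairs with a common acceptor but under 20 bases in common (590 pairs).

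The other Dpyd circles gave values on both sides of 0. Of 20 tested Dpyd members, 10 had a log2 fold change above 0, and the groups were apart and lower in 6 (background 10.4%) and apart and higher in 1 (background 11.1%). Of the 6 lower ones, 5 are the circles with nearly the same probe. The sixth lower one, at chr3:118797348-119065043, was at −4.57, −4.26 and −3.86 against −5.01, −4.84 and −4.73 (log2 fold change −0.63, SE 0.19, limma adjusted p = 0.307). It has the acceptor of the first circle of the pair printed for contrast and the donor of the second. The pair printed for contrast had −4.29, −3.99 and −3.52 against −3.97, −3.34 and −3.98 (ending at 118999385), and −4.53, −4.92 and −4.21 against −4.06, −4.48 and −4.31 (ending at 119065043). Their log2 fold changes were 0.17 (SE 0.25) and 0.27 (SE 0.20). Both of these probes were dimmer than those of the 5 circles on every array. Probes for the linear Dpyd messenger RNA had −0.02 (SE 0.17) and −0.11 (SE 0.21). The difference between the 5 circles and these other probes was not tested.

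**Figure D3:**
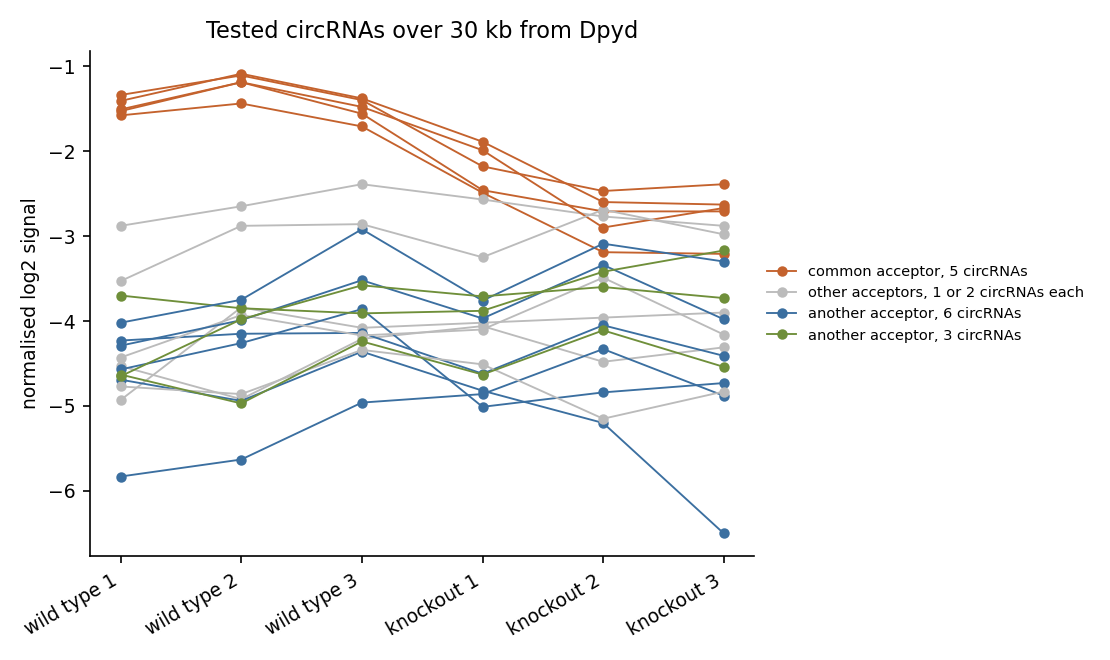
Normalised log2 signal on each of the 6 arrays for the 20 tested circRNAs over 30 kb of Dpyd; a line joins the values of 1 probe and colours mark probes with a common acceptor. The 5 circles of the acceptor at 118915205 lie between −1.71 and −1.09 in wild type and between −3.21 and −1.89 in the knockout, while the other lines show no common step.

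Other members lower on every knockout array by the naming rule were single circles of several genes. Mctp1, a calcium-binding membrane protein gene, gave a 90.3 kb circle at 2.95, 3.09 and 2.87 in wild type against 2.34, 1.65 and 1.69 in the knockout (log2 fold change −1.08, SE 0.20, limma adjusted p = 0.307). Knockout 1 lay between the wild type arrays and knockouts 2 and 3, and the log2 fold change with slide as a block was −0.63. In the next pair the 3 knockout arrays lay within 0.05 of each other. The circle of Cfhr3, a complement factor H related gene, was at −3.53, −3.63 and −3.71 against −4.16, −4.21 and −4.18 (log2 fold change −0.56, SE 0.09, adjusted p = 0.283). That of Mbd5, a methyl-CpG-binding domain protein gene, was at −4.31, −4.27 and −4.34 against −4.75, −4.77 and −4.80 (log2 fold change −0.47, SE 0.08). Gse1 (−0.67) and Nedd9 (−0.53), the latter the gene of a focal adhesion scaffold, completed the 8, and the Gse1 circle was well above background on only 1 knockout array.

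The 8 members with the smallest p among those higher on every knockout array were led by Wdfy3, which encodes an autophagy adaptor for protein aggregates. Its 35.7 kb circle was at −3.85, −3.68 and −3.69 in wild type against −3.04, −3.08 and −3.03 in the knockout. The means were −3.74 ± 0.098 (SD, n = 3) and −3.05 ± 0.026 (n = 3), and the log2 fold change was 0.69 (SE 0.09, limma adjusted p = 0.233), or 0.70 with slide as a block. The other 3 Wdfy3 members overlapped between genotypes, with −0.13, −0.06 and 0.10, and its 4 linear probes had −0.15 to 0.03. Dnmt3a, a DNA methyltransferase gene, gave a 31.2 kb circle at −2.83, −2.84 and −3.08 against −2.29, −2.22 and −2.07 (log2 fold change 0.72, SE 0.11, adjusted p = 0.283), with 0.03 to 0.18 for its 4 linear probes. Kcnk10, a two-pore potassium channel gene, gave −2.60, −2.65 and −2.47 against −2.12, −2.10 and −2.05 (log2 fold change 0.49, SE 0.09), and its linear probes had 0.36 and 0.22.

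Ccdc141, a gene of neuronal migration, was higher by 0.86 in the circle chosen by its p (−3.97, −3.64 and −3.61 against −3.05, −2.92 and −2.68). Of its 15 tested members, 9 were apart and higher (background 11.1%), and the median log2 fold change of the 15 was 0.33. Its 4 linear probes had −0.07 to 0.38. The circle lies at chr2:77108363-77173607, on the chromosome that carries Nfe2l2, and the part of linkage to that gene was not tested. Adamts16, a secreted protease gene, and Abca17, a transporter gene, each had 0.80, but the Abca17 circle was well above background on only 1 wild type array. Thsd7b and Scin, the latter for an actin-severing protein, were not well above background on any wild type array. Their circles were at least 1.38-fold and at least 1.5-fold higher in the knockout, measured against the lowest signal called well above background on each wild type array or the probe's own value if that was higher. Both entered the test through the knockout arrays, where they are high, so their p carries no weight. Detection on all arrays of 1 genotype and none of the other was rare: 14 members had it in the knockout only and 3 in wild type only.

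Bmpr1b, a bone morphogenetic protein receptor gene, was high on 1 array alone. Its 39.6 kb circle was at −4.20, −4.45 and −4.46 in wild type against at −1.09, −4.15 and −4.10 in the knockout. Its log2 fold change was 1.26 (SE 0.80, limma adjusted p = 0.443) without a block. With slide as a block the estimate rests on knockout 1, and it became 3.28 (limma adjusted p = 0.0192; 0.0192 to 0.68 over all alternatives). Its other circle over 30 kb was not well above background on any array, and its linear probes had 0.16 and 0.40. A circle of Pdlim5, a muscle and neuron scaffold gene on the same chromosome, at chr3:142303943-142352885, was high on 2 wild type arrays. It was at −4.05, −1.64 and −1.79 in wild type against −4.13, −4.04 and −3.96 in the knockout, so wild type 1 sat with the knockouts. Its log2 fold change was −1.55 (SE 0.62, limma adjusted p = 0.327), and without wild type 1 it was −2.33 (adjusted p = 0.0175; 0.0175 to 0.949 over all alternatives), the single call made there. The 6 linear Pdlim5 probes had −0.40 to 0.04.

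Most of the large fold changes were carried by slide 2 or by 1 array. More than 2-fold lower in the knockout were 142 tested members (1.91%), against 2.17% of other tested circRNAs (background 1.98%). More than 2-fold higher were 29 members (0.391%), against 0.376% of other tested circRNAs (background 0.541%). Among the 142, the median distance from the wild type mean was −0.03 on knockout 1, −1.92 on knockout 2 and −1.82 on knockout 3, and knockout 1 lay within 0.5 of the wild type mean in 122. From slide 1 alone, 5 of the 142 differed by more than 2-fold, counted in either direction. The count was 295 without knockout 1, 63 without knockout 2 and 78 without knockout 3, and 8 after normexp background correction with an offset of 50. In 109 of them both arrays of slide 2 were more than 2-fold below all 4 arrays of slide 1. Over all tested members this held for 162 (2.18%), the reverse for 0, and among coding transcripts the share was 0.657%. That share was not computed for other circRNAs, so it is not shown to be particular to long spans.

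Synaptotagmin 1, the calcium sensor of vesicle release, gave an example with 6 detected values. A circle of Syt1 at chr10:108690884-108831171 was at 1.77, 1.81 and 1.66 in wild type, 1.79 on knockout 1, and −0.97 and −0.77 on knockouts 2 and 3. The fitted log2 fold change, −1.73 (SE 0.70, limma adjusted p = 0.328), became 0.04 with slide as a block. The shorter Dst circle printed above was at −2.23, −2.31, −2.17 and −2.31 on slide 1 and −5.27 and −4.89 on slide 2, and the longer one at −2.74, −2.85, −2.91 and −2.74 against −5.78 and −5.88. In each of these knockout 1 sat with the wild type arrays. The 6 linear Syt1 probes had log2 fold changes of −0.13 to 0.14.

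The other extreme belonged to wild type 1. In 19 of the 29 members more than 2-fold higher in the knockout, wild type 1 alone was more than 2-fold below all 5 other arrays, and without it the count was 15. A circle of Nfix at chr8:84726469-84779275 was at −7.23 on wild type 1 and between 1.26 and 1.57 on the other 5 arrays. Reps2, an endocytosis gene, was at −7.16 against 0.48 to 0.70, and Myt1l, a neuronal transcription factor gene, at −4.75 against 2.31 to 2.62. Wild type 1 had 186 spots with an outlier flag, the others 13 to 36. Flagged spots were treated as missing, so the low values printed here come from spots without a flag. Why they were low was not tested.

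**Figure D4:**
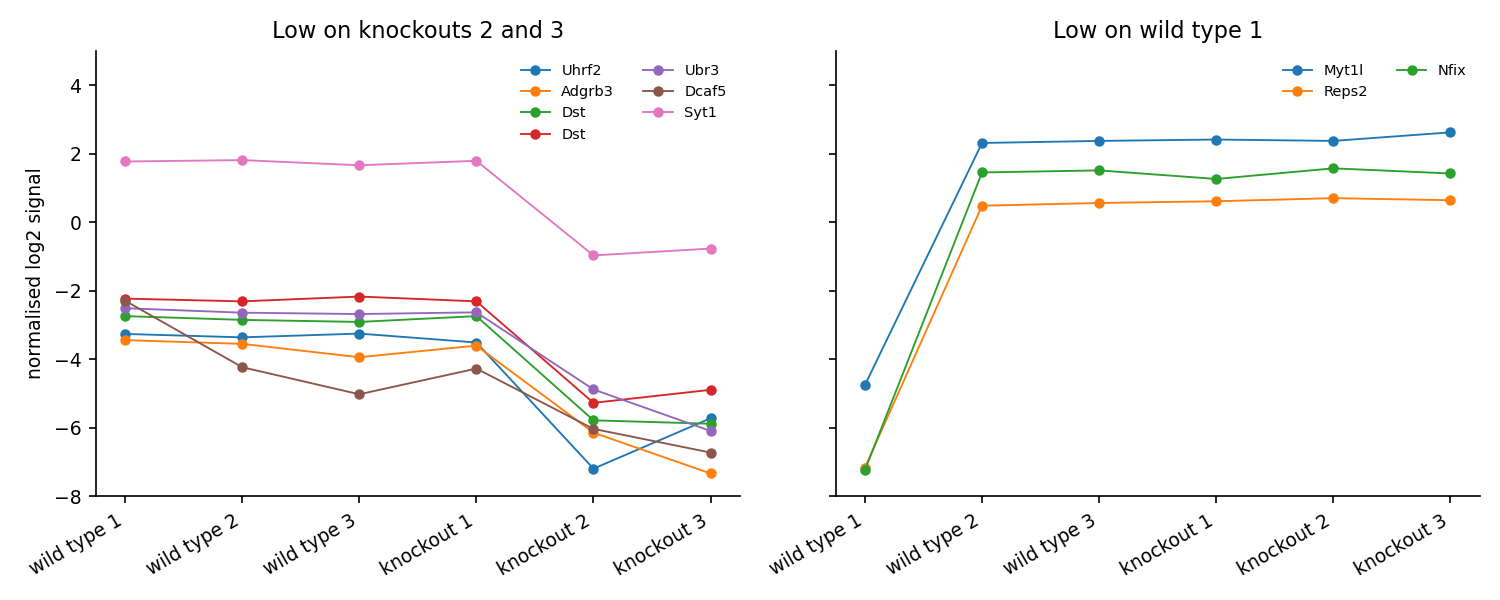
Normalised log2 signal by array for members picked after their values were seen; a line joins the values of 1 probe. Left, 7 circles that are low on knockouts 2 and 3, of which Syt1 falls from between 1.66 and 1.81 to −0.97 and −0.77; right, 3 circles that are low on wild type 1 alone.

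Knockout 2 stood above the other 5 arrays by more than 2-fold in 25 members. The 5 others each did so in 5 to 24, so the count is not particular to knockout 2. Among the 25, Tenm3, a teneurin of synaptic wiring, gave 8 of its 14 and Dlgap1, a postsynaptic scaffold gene, 6 of its 26. All of the 5 Dlgap1 circles from the acceptor at chr17:70078262 behaved alike, as did a circle of another acceptor at chr17:70133769-70424888. The one ending at 70424888, for example, was at 1.02, 1.22 and 1.07 in wild type against 1.09, 2.31 and 0.94 in the knockout. The Tenm3 circle at chr8:48310623-48674722 was at −4.70, −4.01 and −4.09 against −5.08, −2.77 and −4.54. The probes of the 5 Dlgap1 circles have runs of 51 to 55 bases in common with each other. Tenm3 probes with a common acceptor have runs of up to 53 bases in common. Circles with a common acceptor therefore do not count as separate findings in either gene.

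Probe composition and junction position went with the behaviour of slide 2. In the 328 tested members with at most 35% G and C, the median distance from the wild type mean was 0.06 on knockout 1, −0.29 on knockout 2 and −0.26 on knockout 3. In the 1245 above 55% it was 0.04, 0.15 and 0.17. Where the shorter side of the junction had 9 or 10 bases, the medians were 0.06, 0.16 and 0.16 (1983 members); where it had 21 to 30, they were 0.05, −0.07 and −0.06 (922 members). More than 2-fold lower in the knockout were 12 of the 1983 and 62 of the 922. Within a GC content of 40 to 45% the counts were 4 of 747 and 31 of 562. Both slide 2 arrays were more than 2-fold below slide 1 in 0.353% of the former kind and 9.22% of the latter. By span, the 5 classes from 30 to 40 kb to over 200 kb had median log2 fold changes of 0.08 to 0.11. The median local background was 18 and 19 units on the slide 2 arrays and 23 to 24 on slide 1; its part in these differences was not tested. Slide and genotype are only partly separable here, through knockout 1.

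**Figure D5:**
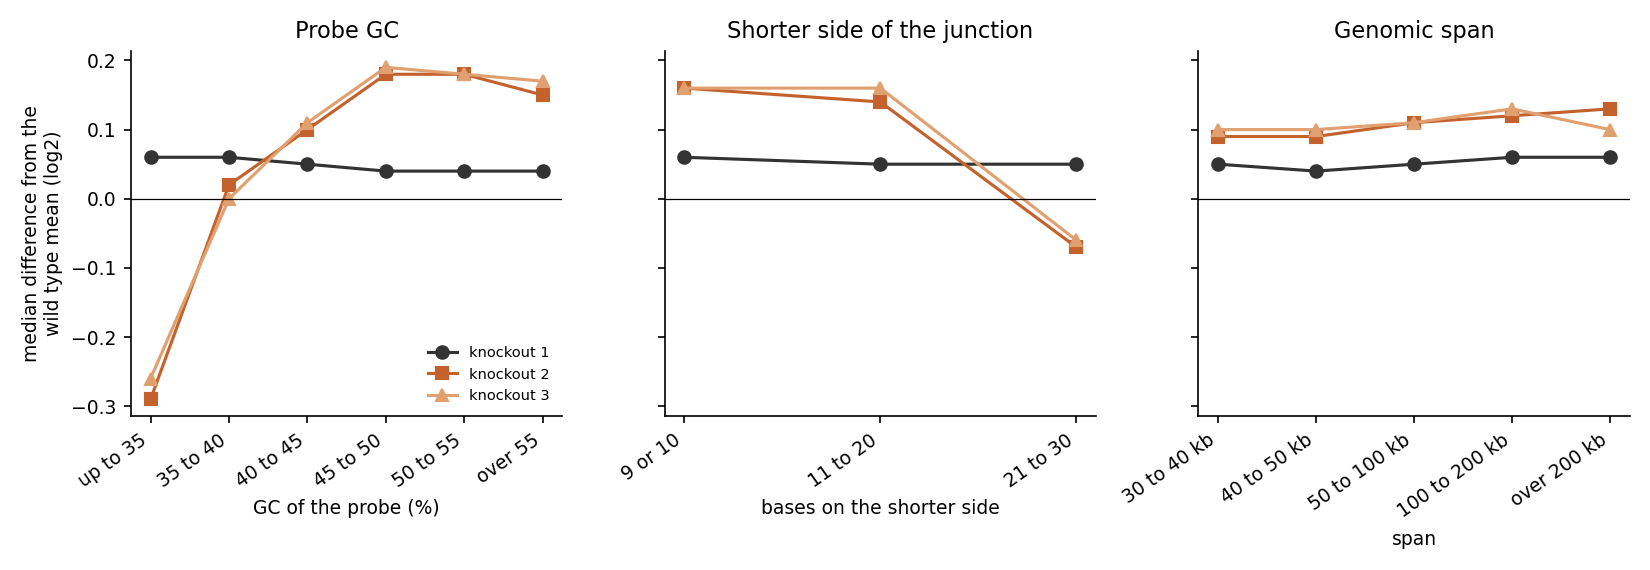
Median difference of each knockout array from the wild type mean (log2) over the tested circRNAs over 30 kb, by GC content of the probe, by the number of bases on the shorter side of the junction and by genomic span. Knockout 1 stays between 0.04 and 0.06 in every class, while knockouts 2 and 3, which share slide 2, run from −0.29 to 0.19 across GC classes.

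Read by host function, no group held a member past the adjusted threshold (0 in each, limma, against 0.00944% of all tested probes). Genes of synaptic adhesion and axon guidance had 527 members, 494 of them tested, with a median log2 fold change of 0.09. Of the 494, 52 were higher and 22 lower at an unadjusted p under 0.05 (background 6.11 and 8.94%). Over all tested circRNAs over 30 kb the shares were 9.29 and 5.48%. The 2 brightest were circles of Dcc, a netrin receptor gene, and Ctnnd2. The Dcc circle was at 5.41, 4.90 and 5.32 in wild type, 5.14 on knockout 1 and 3.57 and 3.91 on knockouts 2 and 3, a log2 fold change of −1.0 that was −0.06 with slide as a block. The 92.0 kb circle of Ctnnd2 was at 4.35, 4.30 and 4.34 in wild type against 4.17, 4.07 and 3.94 in the knockout (log2 fold change −0.27, SE 0.09, adjusted p = 0.312). Genes of glutamate receptors and postsynaptic scaffolds had 212 tested members with a median of 0.15, 22 higher and 9 lower. Their brightest circle, of the scaffold gene Dlg1, went the other way, at 4.04, 3.98 and 4.03 against 3.69, 3.79 and 3.65 (log2 fold change −0.31, SE 0.09, adjusted p = 0.307), or −0.33 with slide as a block. A neighbour from the same acceptor gave −0.38.

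Active zone and vesicle release genes had 174 tested members (19 higher and 3 lower at an unadjusted p under 0.05, median 0.10). The background for these counts and those that follow is again 6.11 and 8.94%, with 9.29 and 5.48% over all tested members. The brightest, a 275 kb circle of Syt1, was at 6.26, 6.28 and 6.07 against 6.18, 6.36 and 6.24 and did not separate. Its probe holds 9 donor and 51 acceptor bases, as do those of the Dcc circle above and the Kcnma1, Mef2c and Abcc1 circles below. GABA receptor genes had 45 tested members (6 higher, 3 lower, median 0.14), voltage-gated channel genes 160 (13 higher, 7 lower, 0.13) and cytoskeleton and transport genes 173 (20 higher, 13 lower, 0.09). In the channel group the brightest circle, of the potassium channel gene Kcnma1, was at 3.36, 2.95 and 3.1 against 3.11, 3.52 and 3.16. Chromatin and transcription regulators had 195 tested members (21 higher, 7 lower, 0.09). In this group the circle of Mef2c, a neuronal activity-dependent transcription factor gene, was at 5.08, 5.10 and 4.76 against 5.18, 5.29 and 5.20, so each knockout array was higher, but it did not pass (log2 fold change 0.24, SE 0.12, limma adjusted p = 0.365).

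Ubiquitin ligase and deubiquitinase genes had 105 tested members, with a median of 0.08. At an unadjusted p under 0.05, 6 were higher and 9 lower (background 6.11 and 8.94%, all tested members 9.29 and 5.48%). Genes that Nrf2 is known to control hosted 11 members in 2 genes; 1 was higher and 1 lower, and the median was 0.06. The brightest was a 37.9 kb circle of Abcc1, a glutathione-conjugate exporter gene, at 0.57, 0.49 and 0.60 in wild type against 0.31, 0.20 and −0.32 in the knockout (log2 fold change −0.49, SE 0.17, limma adjusted p = 0.314), or −0.25 with slide as a block. Another Abcc1 circle, of 41.5 kb, overlapped between genotypes at 0.08, and the 4 linear Abcc1 probes had −0.02 to 0.27.

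Of 455 hosts with at least 5 tested members, 17 had groups apart and higher in the knockout in at least 60% of them. In 2 hosts the groups were apart and lower by the same rule. Of single probes, 17.5 and 5.89% of tested members were apart and higher or lower, against 11.1 and 10.4% of all tested probes. These are not shares of hosts, and no background by host was computed. Those named next were picked after their values were seen. The 2 were Tanc1, a postsynaptic scaffold gene (8 of 13, median log2 fold change −0.36), and Ttn, the gene of titin (5 of 7, median −0.28). Among the 17 were Tmtc2, an endoplasmic reticulum mannosyltransferase gene (7 of 9, median 0.46), Ptprn2, a secretory granule protein gene (6 of 8, 0.38), and the glutamate receptor genes Grik4 (4 of 5, 0.27) and Grid1 (3 of 5, 0.26). With slide as a block their medians were −0.18 and −0.16 for Tanc1 and Ttn and 0.30, 0.15, 0.30 and 0.11 for the others. The part of linkage to Nfe2l2 was not tested for these hosts. Among the 4 hosts with the most members the median was 0.02 for Lrrc7, 0.07 for Adgrb3, 0.06 for Ptk2 and 0.22 for Anks1b. Anks1b was apart and higher in 22 of 37, but members of a host share splice sites and probe bases.

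The genes of circRNA production and turnover gave no call either. All 43 regulators of splicing and back-splicing were tested, and 0 passed limma's adjusted threshold. At an unadjusted p under 0.05 there was 1 higher, Mbnl3 (0.40), and 1 lower, Ptbp1 (−0.55), a splicing repressor of non-neuronal cells. Mbnl3 was dim, at −4.93, −5.05 and −5.06 in wild type against −4.63, −4.36 and −4.86 in the knockout (SE 0.14, limma adjusted p = 0.314). These values are near the detection limit, so its p carries little weight. Ptbp1 was at 5.10, 5.10 and 4.92 in wild type against 4.70, 4.46 and 4.32 in the knockout (SE 0.12, limma adjusted p = 0.307), and its log2 fold change was −0.35 with slide as a block. Qk, the quaking gene, had 0.12 (SE 0.08). Among 30 tested genes of export, decay and decoding, 1 was lower at an unadjusted p under 0.05: Rida, whose protein bridges a methylation reader to an RNA-cutting enzyme, was at 3.48, 3.46 and 3.43 against 2.89, 3.07 and 2.78 (log2 fold change −0.55, SE 0.10, adjusted p = 0.307), and −0.57 with slide as a block. In the whole set of 17560 tested coding genes 12.4% had an unadjusted p under 0.05, against 4.65 and 3.33% in these lists.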

How the data were processed

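Each deposited scanner file holds linear spot intensity values; its header names Agilent Feature Extraction 12.0.3.1, whereas version 10.7, with limma, stands in the submitters' processing notes. The authors' processed value table held log2 values, judged against the scanner signals (r of at least 0.99986 over 150305 probes, column medians 5.588 or 5.589) and served as an alternative; the steps that scaled it are not stated in the sources used here. Log2 of the processed signal minus each array's 75th percentile was taken, control spots were left out and outlier-flagged spots treated as missing. Knockout was compared with wild type by lmFit and eBayes of limma 3.58.1 (R 4.3.3; no covariate, two-sided), over the 105930 probes well above background on all 3 arrays of a group, with Benjamini-Hochberg adjustment over all of them. The fit was tested on simulated data. Precision is limited by having 3 arrays a group. No step that removes linear RNA is described in the labels' protocols, and the sources used here do not name the build of the circRNA positions. Hosts came from a RefSeq table of GRCm38, and probe sequences from the deposited files.

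Members named are the 8 higher and 8 lower with the smallest p among those whose groups did not overlap, the 6 brightest, the 4 longest, the 2 brightest of each host list, those of Dpyd, Wdfy3 and Bmpr1b, the 4 hosts with the most members, and listed biogenesis genes; others were chosen after their values were seen, and a few members these rules name are not reported here. The members and lists were chosen with earlier results of these data known. Replicate numbers did not pair the samples (correlations of same-numbered arrays −0.05 to 0.04). Alternatives changed the normalisation, background correction, filter, slide, replicate block, array weights, arrays left out and span threshold.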

Additional observations from a re-analysis of the deposited data

How the results depend on the processing

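No circRNA over 30 kb passed the adjusted threshold under quantile scaling, normexp, the authors' value table, the 75th percentile over detected probes, either filter, slide 1 alone, slide as a random block, or spans over 20 or 50 kb; slide as a fixed block gave 1 and array weights (0.29 for knockout 1, 0.848 to 1.68 for the other arrays) gave 753. Leaving out 1 array at a time gave 0 to 1011, the latter without knockout 1, when slide and genotype cannot be told apart. The percentage with an unadjusted p under 0.05 was 14.8, and 3.53 with the fixed slide block, 3.07 on slide 1, 5.91 with the random block, 39.3 with array weights and 5.43 to 37.4 without 1 array. The median log2 fold change of 0.089 was 0.11 by quantile and by the value table, 0.061 by normexp, 0.05 with the slide block and on slide 1, and 0.073 to 0.112 without 1 array. Circles more than 2-fold lower numbered 142, and, by settings applied to this count after seeing the data, 8 with normexp, 73 with detection on all arrays, 10 with the slide block or slide 1, 38 with the random block, 248 with array weights and 63 to 295 without 1 array; those more than 2-fold higher numbered 29, and 3 with normexp, 8 with detection on all arrays, 53 with no filter and 15 to 40 without 1 array. No circRNA biogenesis gene passed apart from 2 with array weights and 2 without knockout 1 (range 0 to 2). Among 75 named circles recomputed with the slide block and on slide 1, 3 log2 fold changes that lay more than 2 SE from 0 reversed. They became 0.05 for Adgrb3 at chr1:25456996-25488119, 0.10 for the longer Dst circle and 0.04 for Syt1. In 20 others, which lay within 2 SE of 0, the sign changed too. These 2 settings give the same fold changes, those of knockout 1 against wild type, because slide 2 holds only knockouts. Their fold changes therefore count as 1 alternative. The replicate block left 0 called and 12.3% at an unadjusted p under 0.05, with a median of 0.089. Shares well above background stayed within the spread between replicates under the span alternatives. Dim probes are limited by the scanner background, 18 to 24 units.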
